A study of Mus musculus with 16 samples.

Results

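Glucocorticoid receptors and stress hormone targets were examined as 8 named genes: the receptors Nr3c1 and Nr3c2, the receptor cochaperones Fkbp5 and Fkbp4, the hormone-induced genes Sgk1, Tsc22d3 and Per1, and the inactivating enzyme gene Hsd11b2. They were found by exact symbol in each table of expression values, among 16250 symbols listed in any of them. Of the 8 genes, 7 were listed in all 16 libraries and 1, Hsd11b2, in none. The libraries were of wild-type mouse brain taken at embryonic day 18.5, with 5 EE and 5 SH libraries from cortex and 3 EE and 3 SH libraries from hippocampus. EE stands for an enriched environment and SH for standard habitation. The series title calls the exposure prenatal, and enriched cages in general offer more room, objects to explore or companions. The labels used here state neither what the enrichment held nor which mothers, litters or fetuses gave each library, so p-values here measure library-to-library spread, which may be technical.

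As background, stress releases corticosterone from the adrenal gland, which binds 2 nuclear receptors in the brain. The mineralocorticoid receptor, encoded by Nr3c2, holds the hormone tightly and is abundant in the adult hippocampus, while the glucocorticoid receptor, encoded by Nr3c1, binds it less tightly and fills when the hormone rises. Unbound receptor sits in a complex with the chaperone Hsp90 and an immunophilin. FKBP51, from Fkbp5, lowers hormone binding and is itself induced by glucocorticoid, while FKBP52, from Fkbp4, favours transport to the nucleus. The bound receptor then switches on genes such as Sgk1, Tsc22d3 and Per1.

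Levels are in FPKM, a count of sequenced fragments scaled by transcript length and library size, and can be set side by side between genes. Whole reads recovered from the steps of these values numbered 15342373 to 20734263 per library in cortex replicates 1 to 3, 11591154 to 12322475 in cortex replicates 4 and 5, and 16207773 to 21127203 in hippocampus. Cortex replicates 1 to 3 and replicates 4 and 5 list different numbers of genes and were treated as 2 sets. Cortex SH replicate 3 stood apart, with a summed FPKM of 511438 against 339726 to 396658 in the other 15 libraries. Its deviations fell with transcript length (Spearman's rho = -0.76 across 12665 genes, against -0.48 to 0.64 in the others). Deviations were taken from the mean of each library's own cortex set or of hippocampus. The summed level of 7 transcription factor genes of hippocampal fields and dentate gyrus was 141 to 217 FPKM in hippocampus and 45.6 to 63.5 FPKM in cortex, as the tissue labels have it.

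The 7 genes spanned a wide range of levels. In cortex, Fkbp4 was highest with 124 ± 22.1 FPKM (SD, n = 10), at percentile 96.7 of 13447 genes. Fkbp5 followed with 20.3 ± 3.69 FPKM. Tsc22d3 (12.2 ± 0.833 FPKM) and Sgk1 (12.2 ± 2.51 FPKM) did not differ beyond their spread, and Per1, whose range overlapped that of Sgk1, came next with 7.33 ± 1.53 FPKM. The receptors were lowest, Nr3c1 with 2.70 ± 0.553 FPKM and Nr3c2 with 2.10 ± 0.714 FPKM, at percentiles 21.8 and 17.0, and their ranges overlapped. In hippocampus the order was Fkbp4 (109 ± 5.97 FPKM, SD, n = 6), Fkbp5 (14.9 ± 2.82), Sgk1 (13.2 ± 5.26), Tsc22d3 (11.1 ± 1.25), Per1 (8.72 ± 2.16), Nr3c2 (4.22 ± 0.889) and Nr3c1 (3.45 ± 0.834). Ranges of neighbours overlapped throughout that order, except between Fkbp4 and Fkbp5 and between Per1 and Nr3c2. The reads behind 1 value ran from 69, for Nr3c2 in cortex SH replicate 3, to 8534, for Fkbp4 in the same library.

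**Figure D1:**
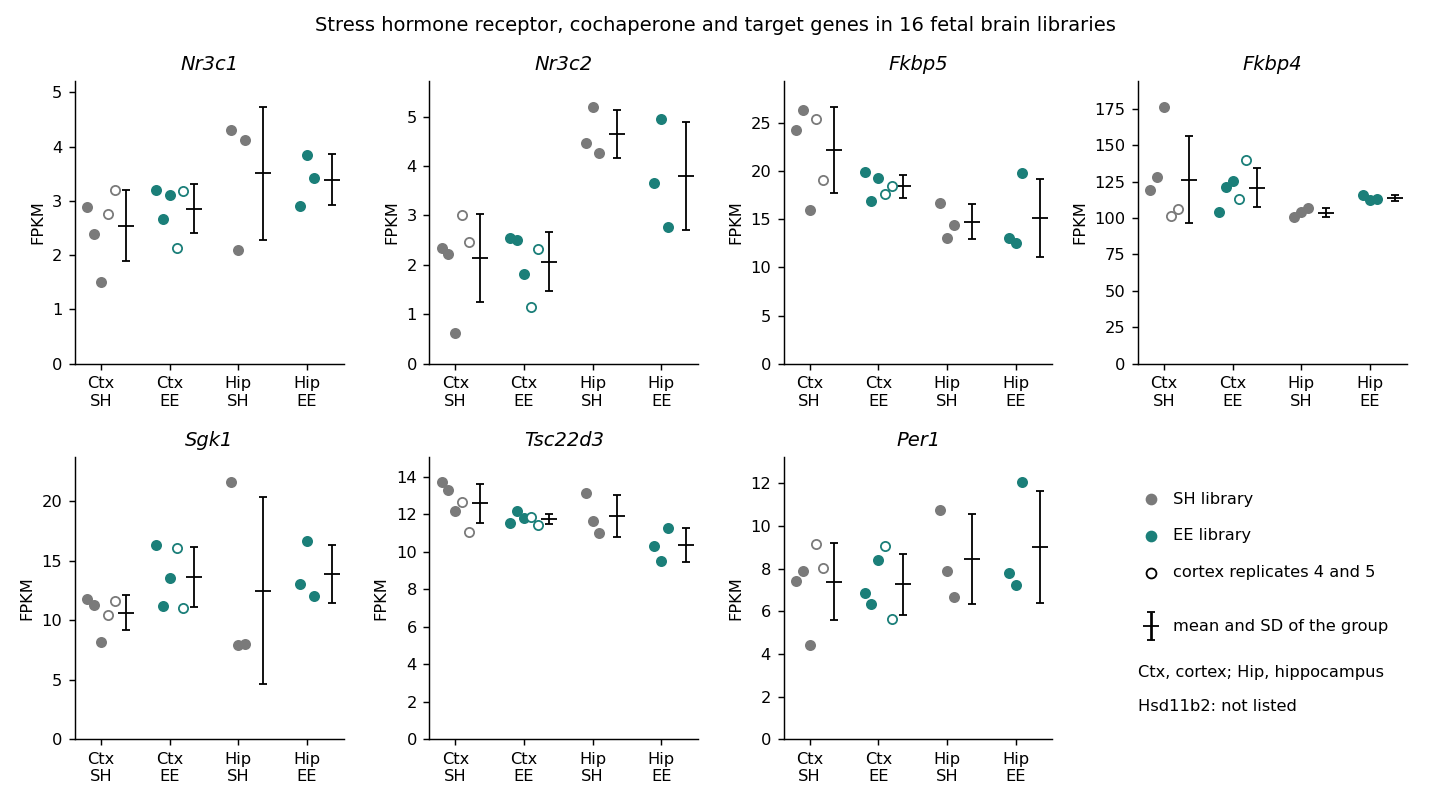
FPKM of the 7 listed genes by library in cortex (Ctx) and hippocampus (Hip), EE in green and SH in grey, with open circles for cortex replicates 4 and 5 and black bars for the mean and SD of each group. The hippocampal Nr3c2 values, 2.77 to 5.20 FPKM, lie above those of cortex replicates 1 to 3, 0.630 to 2.55 FPKM.

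Nr3c1 lies on chr18:39410545-39519421 (minus strand, GRCm38). In cortex, EE replicates 1 to 5 had 3.19, 2.66, 3.12, 2.14 and 3.18 FPKM, and SH replicates 1 to 5 had 2.88, 2.39, 1.51, 2.76 and 3.20 FPKM. The groups overlapped across nearly their whole range, and the lowest value was that of cortex SH replicate 3. The log2 difference of FPKM + 1 between EE and SH was 0.13 ± 0.15 (SE, limma, adjusted p = 0.848). In hippocampus, EE replicates 1 to 3 had 2.91, 3.84 and 3.43 FPKM and SH replicates 1 to 3 had 4.31, 2.10 and 4.12 FPKM. The SH libraries lay on both sides of the EE libraries, and the fitted log2 difference was 0.00 with a 95% interval from -0.54 to 0.53. Between tissues Nr3c1 did not pass the threshold of an adjusted p of 0.05 (0.29 ± 0.15 log2 higher in hippocampus, limma, adjusted p = 0.159).

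Nr3c2 lies on chr8:76899442-77245012 (plus strand) and shares exon bases with Gm10649 on the other strand, whose reads the unstated strandedness of the counting may not separate. Cortex EE replicates 1 to 5 had 2.55, 2.49, 1.81, 1.14 and 2.32 FPKM, and cortex SH replicates had 2.34, 2.22, 0.630, 3.00 and 2.46 FPKM. The lowest was again cortex SH replicate 3, and the groups overlapped (log2 difference 0.01 ± 0.24 SE, limma, adjusted p = 0.996). In hippocampus, EE replicates had 3.66, 4.94 and 2.77 FPKM and SH replicates had 4.47, 5.20 and 4.27 FPKM. In 2 of 3 EE libraries the value was below the SH mean, and 1 EE library lay among the SH libraries (-0.26 ± 0.18 log2, limma, adjusted p = 0.9996). Leaving out EE replicate 2 made it -0.43, and leaving out EE replicate 3 made it -0.098.

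Nr3c2 was the gene of this set that differed most between tissues. It was higher in hippocampus, 4.22 ± 0.889 FPKM (SD, n = 6), than in cortex replicates 1 to 3, 2.01 ± 0.725 FPKM (SD, n = 6). The log2 difference was 0.82 ± 0.19 (SE, 95% interval 0.40 to 1.24, limma, adjusted p = 0.00598), a 1.77-fold difference on the scale of FPKM + 1. Every hippocampal library was above every cortex library of replicates 1 to 3, as for 14.9% of all genes tested. Without cortex SH replicate 3 the log2 difference was 0.64 (limma, adjusted p = 0.00147), and on the recovered reads it was 1.18 (limma-voom, adjusted p = 0.00987). Of cortex replicates 4 and 5, which were outside this fit, 1 library had 3.00 FPKM, above the lowest hippocampal value of 2.77 FPKM. In bulk tissue, more cells of a type and more RNA per cell cannot be told apart.

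The ratio of Nr3c2 to Nr3c1 within a library, which no scaling factor of a library can change, was examined after these values were seen. It was 0.798, 0.937, 0.582, 0.534 and 0.731 in cortex EE replicates 1 to 5 and 0.813, 0.932, 0.416, 1.09 and 0.771 in cortex SH replicates. In hippocampus it was 1.26, 1.29 and 0.808 in EE and 1.04, 2.48 and 1.04 in SH. The ratio thus exceeded 1 in 5 of 6 hippocampal libraries and in 1 of 10 cortex libraries. Over replicates 1 to 3 the mean log2 ratio was 0.78 higher in hippocampus (two-sided exact permutation test within treatment, n = 12, p = 0.02, adjusted p = 0.06 over 3 comparisons). It did not pass after adjustment, and without cortex SH replicate 3 or without hippocampus SH replicate 2 the unadjusted exact p was 0.06 and 0.055. Between EE and SH the log2 ratio differed by -0.13 in cortex (exact permutation test within sets, n = 10, p = 0.633) and by -0.34 in hippocampus (exact permutation test, n = 6, p = 0.6, where 0.1 is the smallest p the design allows).

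Fkbp5 lies on chr17:28399094-28517527 (minus strand). Of the 8 genes, 6 had entries in the RefSeq promoter table (GRCm38.p6), 14 windows in all, of which the 250 bases before the listed start were searched for 3 motifs. The motifs were the palindromic glucocorticoid response element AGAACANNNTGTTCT with any 3 bases in its middle, its single arm AGAACA, and the clock-factor E-box CACGTG, each on both strands. The E-box was in 3 of the 14 windows, 1 each of Fkbp5, Per1 and Sgk1, and in 6.02% of all 32851 windows of that length. The single arm was in 4 of the 14, belonging to Sgk1 and Tsc22d3, and in 16.1% of all windows. The windows with the E-box, 1 of which also held the palindrome, are shown. Capitals mark the matches. The Fkbp5 window, chr17:28486150-28486399 on the minus strand, lies within an intron of a longer transcript in the GENCODE annotation and holds the E-box at bases -169 to -164 from the start.
Fkbp5: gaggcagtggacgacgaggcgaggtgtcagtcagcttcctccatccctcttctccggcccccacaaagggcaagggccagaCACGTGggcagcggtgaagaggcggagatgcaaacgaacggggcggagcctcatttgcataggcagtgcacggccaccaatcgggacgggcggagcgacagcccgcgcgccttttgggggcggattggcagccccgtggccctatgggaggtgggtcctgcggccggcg

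Fkbp5 was the other gene past the threshold between tissues, narrowly. Cortex EE replicates 1 to 5 had 19.9, 16.9, 19.3, 17.6 and 18.4 FPKM, and cortex SH replicates had 24.3, 26.3, 15.9, 25.4 and 19.1 FPKM. Hippocampus EE replicates had 13.1, 12.5 and 19.8 FPKM and SH replicates had 16.7, 13.1 and 14.4 FPKM. Of the 6 hippocampal libraries 4 were below every cortex library, while EE replicate 3 and SH replicate 1 lay among them. Over replicates 1 to 3 the log2 difference was -0.42 ± 0.14 (SE, 95% interval -0.73 to -0.12, limma, adjusted p = 0.0338). The call was kept when cortex EE replicate 2, cortex SH replicate 3, hippocampus EE replicate 3 or hippocampus SH replicate 1 was left out, and was lost without any 1 of the other 8 libraries (limma, adjusted p = 0.0603 to 0.0799). It was also lost with a term for the replicate number (limma, adjusted p = 0.0509).

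Within cortex, Fkbp5 was below the SH mean of its own set in 5 of 5 EE libraries, as were 8.58% of all genes tested. The 5 EE values, 16.9 to 19.9 FPKM, were close together, while 3 SH libraries lay above them at 24.3 to 26.3 FPKM, 1 among them and 1 below. The log2 difference was -0.24 ± 0.14 (SE, limma, adjusted p = 0.739), -0.21 in replicates 1 to 3 alone and -0.28 in replicates 4 and 5 alone. Without cortex SH replicate 3, the 1 SH library below the EE range, it was -0.36 (limma, adjusted p = 0.208). In hippocampus the difference was 0.02 ± 0.18 (SE, limma, adjusted p = 0.9996). The difference between tissues in the EE effect, 0.22 ± 0.28 log2 (SE), did not pass (limma interaction, adjusted p = 0.703).

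Fkbp4 lies on chr6:128429735-128438677 (minus strand). Cortex EE replicates 1 to 5 had 104, 121, 126, 113 and 140 FPKM and cortex SH replicates had 119, 128, 176, 101 and 107 FPKM. The highest value belonged to cortex SH replicate 3, the library in which both receptors were lowest. The EE libraries lay below the SH mean in replicates 1 to 3 and above it in replicates 4 and 5, with log2 differences of -0.25 and 0.27, and -0.04 ± 0.15 (SE) over both sets (limma, adjusted p = 0.953). In hippocampus, EE replicates had 116, 112 and 113 FPKM and SH replicates had 101, 104 and 107 FPKM. The hippocampal groups did not overlap, EE being higher, as for 345 of 13344 genes tested (2.59%). The log2 difference was 0.13 ± 0.08 (SE, 95% interval -0.06 to 0.32, limma, adjusted p = 0.9996). Between tissues the difference of -0.23 ± 0.11 log2 did not pass (limma, adjusted p = 0.135). It did when each library's trend on transcript length, against the mean of its own set or tissue, was removed (-0.23, limma, adjusted p = 0.0204). That step left any length trend between the tissues in place. Over all 13158 genes tested, 4198 were then called higher and 2079 lower, against 3233 and 1428 before it.

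Sgk1 encodes a kinase that keeps ion channels and transporters at the membrane, and lies on chr10:21882184-21999903 (plus strand). Its window at chr10:21993640-21993889 (plus strand), in an intron of a longer GENCODE transcript, is shown because it held the complete palindrome, at bases -189 to -175, as did 3 of all 32851 windows (0.00913%). The same window held an E-box at -246 to -241, which overlaps a further single arm at -242 to -237.
Sgk1: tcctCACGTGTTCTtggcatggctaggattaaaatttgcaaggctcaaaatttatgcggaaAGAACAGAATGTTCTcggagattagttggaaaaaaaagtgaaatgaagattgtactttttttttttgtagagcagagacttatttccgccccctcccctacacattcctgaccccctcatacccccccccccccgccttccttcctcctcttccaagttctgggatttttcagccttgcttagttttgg

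Sgk1 was higher in EE than in the SH mean in 5 of 5 cortex libraries, as were 5.53% of all genes tested, without passing the test over all genes. Cortex EE replicates 1 to 5 had 16.3, 11.2, 13.6, 16.1 and 11.01 FPKM, and cortex SH replicates had 11.8, 11.3, 8.21, 10.4 and 11.6 FPKM. Of the EE libraries, 3 lay above every SH library and 2 lay among them. EE replicate 5 was level with the SH mean of its set, and EE replicate 2 lay below the other 2 SH libraries of its set, so that its place above the mean rests on cortex SH replicate 3. The log2 difference was 0.32 ± 0.14 (SE, 95% interval 0.00 to 0.64, unadjusted p = 0.0485, limma, adjusted p = 0.658), and 7.45% of all genes had an unadjusted p under 0.05. It was 0.36 in replicates 1 to 3 alone and 0.26 in replicates 4 and 5 alone, and 0.23 without cortex SH replicate 3, the lowest library (limma, adjusted p = 0.526).

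In hippocampus, Sgk1 was 13.0, 16.7 and 12.1 FPKM in EE replicates 1 to 3 and 21.6, 7.91 and 8.03 FPKM in SH replicates. The SH group held both the highest library and the lowest ones (0.28 ± 0.36 log2 SE, limma, adjusted p = 0.9996). Transthyretin, Ttr, the most abundant transcript of the choroid plexus, was 4989, 10300 and 33.6 FPKM in the same EE libraries and 16656, 37.9 and 144 FPKM in the SH libraries. The 3 hippocampal libraries with the most Ttr were also the 3 with the most Sgk1. The summed level of 7 choroid plexus markers ran from 47.2 to 17048 FPKM in SH and from 50.4 to 10562 FPKM in EE, with no marker at 0, and its part in the Sgk1 values was not tested. The log2 difference between EE and SH was 0.72 without hippocampus SH replicate 1 (limma, adjusted p = 0.612), 0.052 without SH replicate 2, 0.061 without SH replicate 3 and 0.15 without EE replicate 2. Between tissues, the Sgk1 difference of 0.07 ± 0.21 log2 (SE) turned to -0.14 without hippocampus SH replicate 1, and neither passed (limma, adjusted p = 0.832 and 0.487). Among cortex libraries, EE replicate 4 (16.1 FPKM of Sgk1) had the most Ttr, 689 FPKM. EE replicate 1, the highest cortex library for Sgk1 (16.3 FPKM), had 77.5 FPKM of Ttr. The part of choroid plexus in the cortex values was not tested either.

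**Figure D2:**
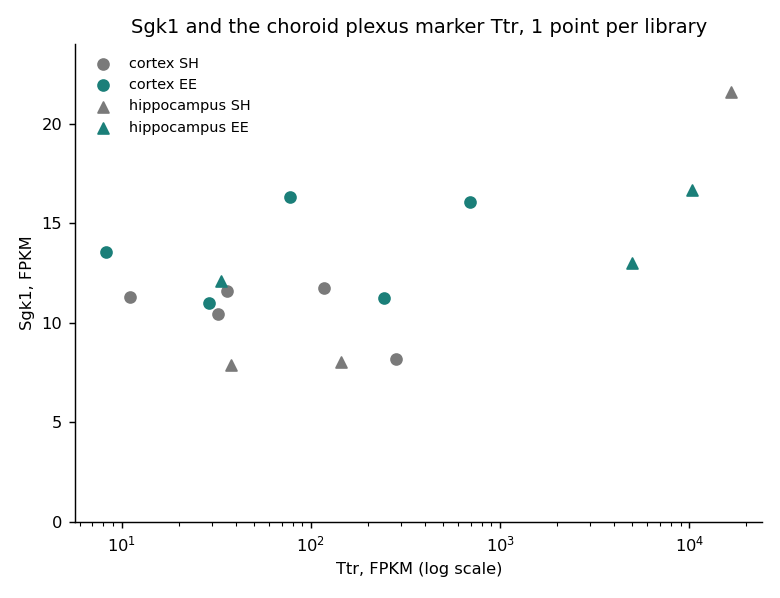
Sgk1 FPKM against FPKM of the choroid plexus marker Ttr on a log axis, 1 point per library, circles for cortex and triangles for hippocampus, EE in green and SH in grey. The 3 triangles at the right, with Ttr from 4989 to 16656 FPKM, have Sgk1 from 13.0 to 21.6 FPKM, while the other 3 hippocampal libraries have 7.91 to 12.1 FPKM.

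Tsc22d3, on chrX:140539528-140600659 (minus strand), encodes GILZ, a protein that mediates part of the anti-inflammatory action of glucocorticoids. Among cortex libraries it varied least for its level. Cortex EE replicates 1 to 5 had 11.5, 12.1, 11.8, 11.8 and 11.4 FPKM and cortex SH replicates had 13.7, 13.3, 12.2, 12.7 and 11.1 FPKM. Hippocampus EE replicates had 10.3, 9.48 and 11.3 FPKM and SH replicates had 13.2, 11.6 and 10.98 FPKM. It was below the SH mean in all 8 EE libraries, 5 of cortex and 3 of hippocampus, as were 561 of 12314 genes tested in both tissues (4.56%), and the groups overlapped in each tissue. Cortex EE replicate 4 was nearly level with the SH mean of its set, and cortex SH replicate 5 was the lowest cortex library. Neither log2 difference passed, -0.09 ± 0.08 (SE) in cortex and -0.18 ± 0.11 in hippocampus (limma, adjusted p = 0.824 and 0.9996). Between tissues the difference of -0.15 ± 0.07 log2 did not pass (limma, adjusted p = 0.136), but did under median-of-ratios scaling (-0.28, adjusted p = 0.0116), under quantile normalization (-0.27, adjusted p = 0.0142) and in 1 of 12 fits that left out a library.

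Per1, a clock gene that glucocorticoids also induce, lies on chr11:69095217-69109960 (plus strand). Its window at chr11:69098699-69098947 (plus strand), shown because it held the E-box at bases -166 to -161, ends just before the first base of an exon.
Per1: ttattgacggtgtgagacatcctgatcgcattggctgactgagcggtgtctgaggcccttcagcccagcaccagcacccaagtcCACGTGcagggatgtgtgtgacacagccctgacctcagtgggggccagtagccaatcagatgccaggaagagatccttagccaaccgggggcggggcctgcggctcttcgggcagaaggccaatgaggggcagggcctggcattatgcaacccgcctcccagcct

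Cortex EE replicates 1 to 5 had 6.88, 6.33, 8.41, 9.07 and 5.65 FPKM of Per1 and cortex SH replicates had 7.44, 7.89, 4.40, 9.17 and 8.05 FPKM. Hippocampus EE replicates had 7.77, 7.24 and 12.04 FPKM and SH replicates had 10.8, 7.87 and 6.66 FPKM. Groups overlapped in both tissues, cortex SH replicate 3 was lowest and hippocampus EE replicate 3 highest. Log2 differences between EE and SH were -0.01 ± 0.18 (SE) in cortex and 0.08 ± 0.23 in hippocampus (limma, adjusted p = 0.994 and 0.9996). The tissue difference of 0.30 ± 0.16 log2 did not pass (limma, adjusted p = 0.173). Hsd11b2, whose enzyme turns corticosterone into an inactive form and shields fetal tissue, lies on chr8:105518755-105523988 (plus strand) and was listed in no table, which was treated as missing and not as 0.

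Enrichment was thus followed by no call among the 7 genes in either tissue. In cortex 1 of 12539 genes passed (0.00798%), and 934 had an unadjusted p under 0.05 (7.45%), among them 1 of the 7, Sgk1. In hippocampus 0 of 13344 genes passed (0%), with 503 under an unadjusted p of 0.05 (3.77%) and none of the 7 among them. On recovered reads limma-voom also called 1 and 0 genes, none of the 7. The intervals bound the differences: in cortex the 95% intervals of the 7 log2 differences lay between -0.55 and 0.64, and in hippocampus between -0.69 and 1.12. The median log2 difference of the 7 was -0.01 in cortex, against -0.02 for all genes, and 0.02 in hippocampus, against -0.01. The EE effect did not pass a test of its difference between tissues for any of the 7 (limma interaction, lowest adjusted p = 0.495, for Fkbp4), and 0 of 13158 genes did (0%, with 990, or 7.52%, under an unadjusted p of 0.05). The same held for its difference between the 2 sets of cortex libraries, where 0 of 12539 genes passed (0%) and 2434 had an unadjusted p under 0.05 (19.4%), none of the 7 among them.

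**Figure D3:**
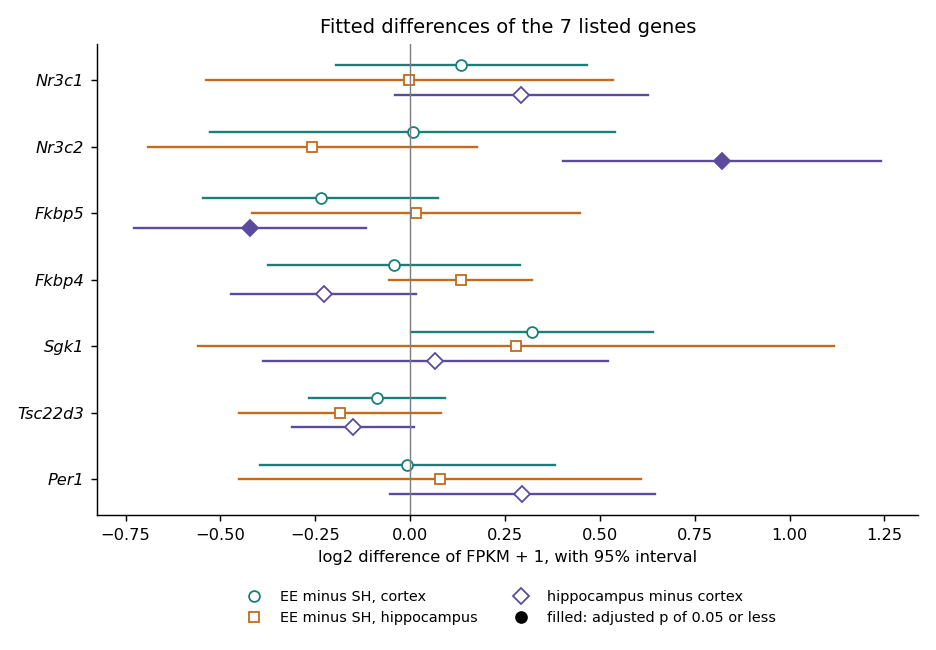
Fitted log2 differences of FPKM + 1 with 95% intervals for the 7 listed genes: EE minus SH in cortex (circles), EE minus SH in hippocampus (squares) and hippocampus minus cortex in replicates 1 to 3 (diamonds), filled where the adjusted p was 0.05 or less. The filled symbols are the tissue differences of Nr3c2 (0.82) and Fkbp5 (-0.42).

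Between tissues 2 of the 7 genes passed, 1 higher and 1 lower in hippocampus, while 35.4% of 13158 genes did, 24.6% higher and 10.9% lower. The share is thus near that of all genes. The median log2 difference over all genes was 0.09, and was -0.03 under median-of-ratios scaling and 0.00 under quantile normalization. With it, the share of calls that were higher in hippocampus moved from 69.4% to 49.3% and 51.2%. Nr3c2 and Fkbp5 kept direction and call under both scalings, though Fkbp5 lost its call in the other fits given above, with log2 differences of 0.73 and 0.62 for Nr3c2 and -0.55 and -0.50 for Fkbp5. In the 12 libraries of the tissue comparison, summed levels of interneuron markers were 154 to 284 FPKM in hippocampus and 557 to 1119 FPKM in cortex. Those of radial glia and astrocyte markers were 1335 to 2114 and 1138 to 1907 FPKM. In the same 12 libraries, choroid plexus markers summed to 47.2 to 17048 FPKM in hippocampus and 27.9 to 301 FPKM in cortex, and markers of meninges and fibroblasts to 55.0 to 367 FPKM and 256 to 376 FPKM. The part of these cell types in the tissue differences was not tested.

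Within tissues and sets, Fkbp5 and Per1 moved most closely together of the 21 pairs of these genes. Their log2 deviations from the mean of the set or tissue correlated across 16 libraries with Pearson's r = 0.71 (permutation test within sets and tissue, p = 0.00514, adjusted p = 0.108 over 21 pairs) and Spearman's rho = 0.69 (permutation p = 0.00721, adjusted p = 0.0800). Leaving out the 2 libraries farthest from the median of Fkbp5 gave r = 0.61, and r was 0.60 in the 10 cortex and 0.88 in the 6 hippocampal libraries. Fkbp5 and Tsc22d3 followed with r = 0.62 (permutation p = 0.0180, adjusted p = 0.189) and rho = 0.51 (permutation p = 0.0692, adjusted p = 0.334), and r = 0.65 without the 2 farthest libraries. Nr3c2 and Fkbp4 were opposed, with r = -0.67 (permutation p = 0.0393, adjusted p = 0.206) and rho = -0.69 (permutation p = 0.00762, adjusted p = 0.0800), and r = -0.39 without cortex SH replicate 3. None of the 21 pairs passed after adjustment. Sgk1 and Tsc22d3 showed no such relation (r = 0.00, permutation p = 0.999, adjusted p = 0.999, and rho = -0.23, permutation p = 0.438, adjusted p = 0.661).

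**Figure D4:**
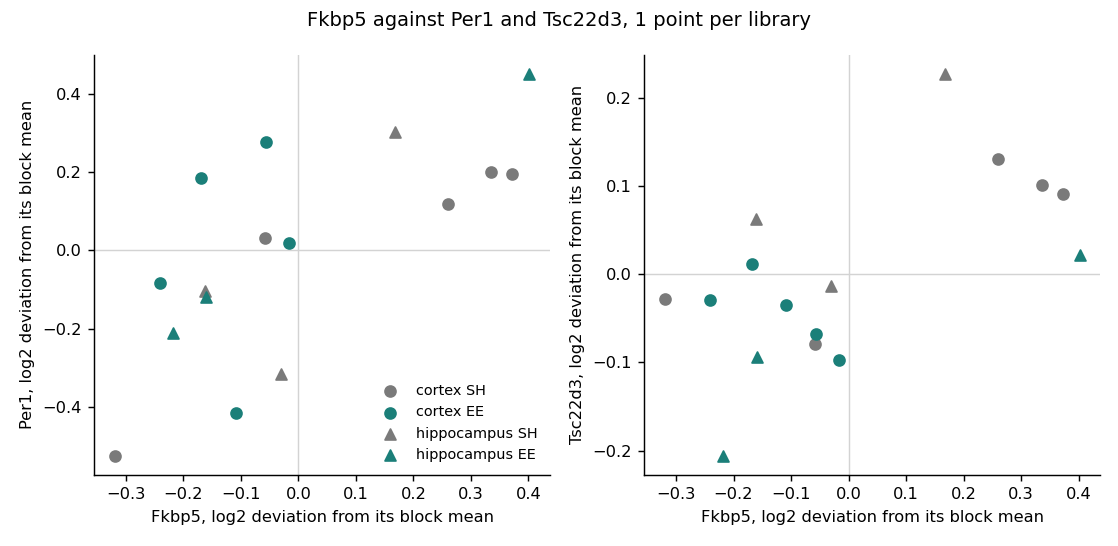
Log2 deviation of Fkbp5 from the mean of its cortex set or of hippocampus, against that of Per1 (left) and Tsc22d3 (right), 1 point per library, circles for cortex and triangles for hippocampus, EE in green and SH in grey. Points rise from lower left to upper right with r = 0.71 on the left and r = 0.62 on the right.

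Genes whose deviations over the 16 libraries were most like those of each gene were ranked among 12651 genes, as a description. For Nr3c1 these were Gli3 (r = 0.96), Myo6 (r = 0.95) and Itgav (r = 0.95), and for Nr3c2 they were Map4k3 (r = 0.98), Marf1 (r = 0.97) and Bptf (r = 0.96). Fkbp4 went with Polr2j (r = 0.97), Mtch1 (r = 0.96) and Phb (r = 0.96), and these were also its nearest 3 without cortex SH replicate 3. For the other genes at least 1 of the 3 changed without that library, most for Fkbp5, whose nearest became Zcchc9 (r = 0.86) and BC005624 (r = 0.79), and for Per1 the nearest became Trank1 (r = 0.87). Over all 16 libraries, Sgk1 went with Wdr78 (r = 0.97), Cfap69 (r = 0.94) and Mamld1 (r = 0.93). Per1 went with Zbtb16 (r = 0.90), itself on the list of glucocorticoid-induced genes, then Trank1 (r = 0.89) and Fam107a (r = 0.88). For Fkbp5 and Tsc22d3 the nearest were less alike, Adamts2 (r = 0.82), Net1 (r = 0.81) and Fam84a (r = 0.79), and 4932416H05Rik (r = 0.80), Stambpl1 (r = 0.75) and Pi16 (r = 0.73). Such values also hold what differs between libraries as a whole, and the part of this was not tested.

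Other genes of the pathway were grouped in 9 lists. Between EE and SH none of them passed in either tissue. Of all genes tested, 45.95% were higher in the EE cortex and 47.2% in the EE hippocampus, the shares against which the counts of higher genes stand. Among 25 tested genes of the list of other glucocorticoid-induced genes, 13 were higher in the EE cortex and the median log2 difference was 0.02, which turned to -0.051 without cortex SH replicate 3. In hippocampus 18 of 26 were higher with a median of 0.06, or 0.032 under quantile normalization. The smallest p in cortex was that of Txnip, an inhibitor of thioredoxin, at 65.8 ± 11.9 FPKM under EE against 38.9 ± 8.70 FPKM under SH (SD over 5 libraries each, 0.75 ± 0.16 log2 SE, limma, adjusted p = 0.271). Dusp1, a phosphatase of stress kinases, came next, at 14.3 ± 1.903 FPKM under EE against 10.9 ± 1.37 FPKM (0.36 ± 0.12 log2, limma, adjusted p = 0.508). It was also the first of that list in hippocampus, with 14.6 ± 0.763 and 12.1 ± 0.514 FPKM (SD over 3 libraries each, 0.25 ± 0.09 log2, limma, adjusted p = 0.9996). For Txnip in cortex and for Dusp1 in both tissues the groups did not overlap, EE being higher, as for 0.606% of genes tested in cortex and 2.59% in hippocampus.

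Of 16 clock genes tested in cortex, 4 were higher in EE with a median of -0.14 log2. The first were Cry1, a repressor of the clock, at 8.01 ± 1.06 FPKM under EE against 11.01 ± 1.93 FPKM (-0.41 ± 0.13 log2 SE, limma, adjusted p = 0.469), and Tef (-0.32 ± 0.13 log2, adjusted p = 0.607). In hippocampus 5 of 16 were higher, and the first was Per2, at 2.78 ± 0.421 FPKM under EE against 4.15 ± 0.452 FPKM (SD over 3 libraries each, -0.45 ± 0.14 log2, limma, adjusted p = 0.9996). Of 16 receptor chaperones and cochaperones tested in hippocampus, 13 were higher in EE with a median of 0.05 log2, or 0.016 under quantile normalization, led by Dnajb1 (0.25 ± 0.10 log2) and Hspa8 (0.27 ± 0.11 log2), neither of which passed (limma, adjusted p = 0.9996 for both). In cortex 7 of 17 were higher, with Hspa1a first (0.42 ± 0.19 log2, limma, adjusted p = 0.658). Of the 18 receptor coregulators, 3 were higher in the EE hippocampus with a median of -0.17 log2, led by Ncoa2 (-0.31 ± 0.12 log2, limma, adjusted p = 0.9996), and 11 were higher in the EE cortex with a median of 0.02 log2, which turned to -0.12 without cortex SH replicate 3. FKBP immunophilins had 2 of 11 higher in the EE cortex (median -0.11 log2, and -0.037 without cortex SH replicate 3) and 9 of 12 higher in the EE hippocampus (median 0.09 log2). Trends on transcript length (Spearman's rho) were -0.48, 0.11 and -0.14 in hippocampus EE replicates 1 to 3 and 0.038, 0.26 and 0.12 in SH replicates. Their part in the list medians was not tested.

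Between tissues, the lists of this pathway held genes in both directions, and their counts stand against 24.6% of all genes called higher in hippocampus and 10.9% called lower. Of 13 tested SGK and TSC22 relatives and SGK substrates, 6 were higher in hippocampus (Akt2, Foxo1, Tsc22d4, Ndrg2, Nedd4l and Foxo3) and Tsc22d1 was lower, with a median of 0.52 log2 against 0.09 for all genes. The median of this list was 0.39 under median-of-ratios scaling, against -0.028 for all genes, and 0.35 under quantile normalization, against -0.0035. Without cortex SH replicate 3 it was 0.42, against 0.083. Nedd4l, a ubiquitin ligase that SGK1 phosphorylates, was 10.5 ± 1.51 FPKM in hippocampus and 6.83 ± 1.34 FPKM in cortex (SD, n = 6 each, 0.57 ± 0.14 log2 SE, limma, adjusted p = 0.00639). Of 18 coregulators, 4 were higher, among them Crebbp (0.52), Ncoa1 (0.61) and Med1 (0.41), and Nrip1 was lower (-0.46), shares near those of all genes. Without cortex SH replicate 3, 7 were higher and 1 lower, beside 3759 and 2001 of all 13169 genes tested. Tomm34 was the 1 of 16 chaperones and cochaperones that passed, and was higher in hippocampus (0.46 ± 0.08 log2, limma, adjusted p = 0.00107). The counts of this list depended on the setting. They were 1 higher and 2 lower under median-of-ratios scaling, beside 2167 and 2228 over all genes. Under quantile normalization they were 3 and 1, beside 2152 and 2055, and without cortex SH replicate 3 they were 2 and 1.

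Of 26 other glucocorticoid-induced genes, 5 were higher in hippocampus and 4 lower, against 24.6% and 10.9% of all genes. These became 4 higher and 7 lower under median-of-ratios scaling, where 2167 of all 13158 genes were called higher and 2228 lower. Under quantile normalization they became 5 and 7, beside 2152 and 2055 over all genes. Mt2, a metallothionein, was highest by fold, with 155 ± 39.9 FPKM in hippocampus and 72.9 ± 34.7 FPKM in cortex (1.14 ± 0.24 log2 SE, limma, adjusted p = 0.00337), followed by Gadd45g (0.90), Mt1 (0.78), also a metallothionein, then Zbtb16 (0.74) and Rasd1 (0.65). Anxa1, an anti-inflammatory mediator, was lower in hippocampus, 5.63 ± 1.22 FPKM against 11.7 ± 2.77 FPKM (-0.93 ± 0.16 log2, limma, adjusted p = 0.000929), as were Cdkn1a (-0.66), Angptl4 (-0.55) and Bcl6 (-0.55). Of 16 clock genes, 5 were higher (among them Tef, Per2, Clock and Arntl) and 3 lower (Rorb, Npas2 and Cry1). These became 4 and 5 under median-of-ratios scaling, and 3 and 5 under quantile normalization, beside the counts over all genes given above for each scaling. Of 12 FKBP immunophilins Fkbp15 and Fkbp9 were higher and Fkbp1b lower.

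Receptors of stress peptides were low in both tissues. Of 5 tested, Avpr1a, a vasopressin receptor, was higher in hippocampus, 1.70 ± 0.170 FPKM against 0.802 ± 0.193 FPKM (0.59 ± 0.09 log2 SE, limma, adjusted p = 0.000411). Mc4r, a melanocortin receptor, was lower, 0.464 ± 0.208 FPKM against 2.94 ± 0.407 FPKM (-1.44 ± 0.12 log2, limma, adjusted p = 3.99e-06), as were the oxytocin receptor gene Oxtr (-0.67) and the corticotropin-releasing hormone receptor gene Crhr1 (-0.33). Abcc1, an efflux transporter, was the 1 of 4 genes of glucocorticoid synthesis, inactivation and efflux that passed, and was higher in hippocampus (0.56 ± 0.15 log2, adjusted p = 0.0134). Esrrg, an orphan receptor, was lower (-0.79 ± 0.18 log2, limma, adjusted p = 0.00431). All list genes called between tissues kept their direction under both scalings, and the calls of Med1, Mt1, Arntl, Fkbp9, Clock and Tsc22d1 were lost under 1 or both. Without cortex SH replicate 3 the call of Angptl4 was lost.

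**Figure D5:**
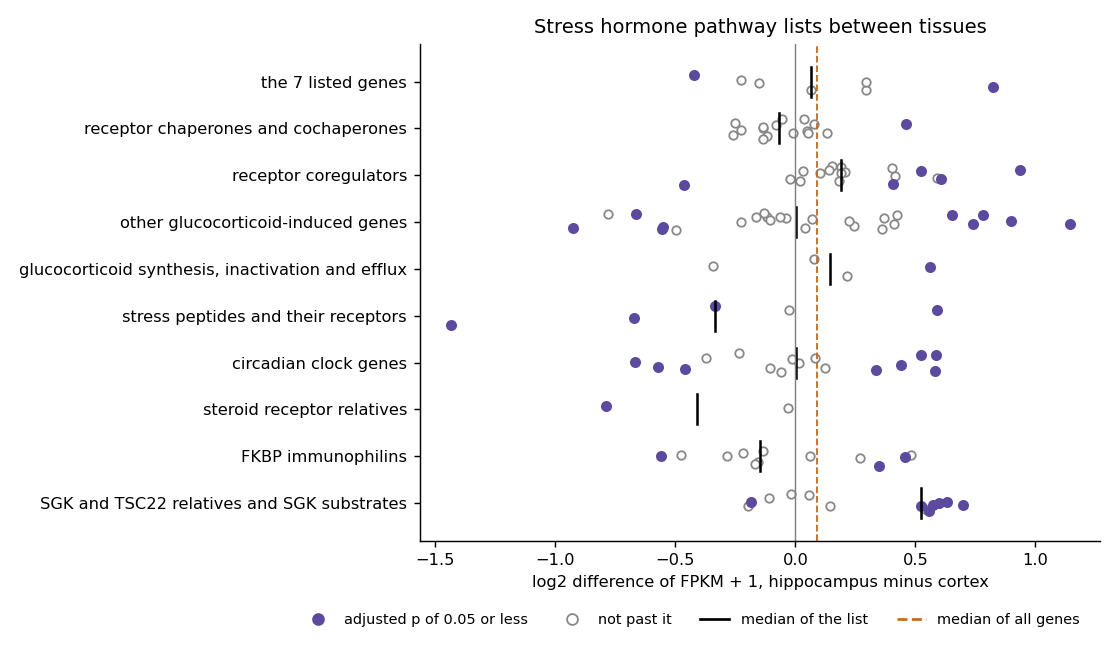
Log2 difference of FPKM + 1, hippocampus minus cortex in replicates 1 to 3, for each tested gene of the 9 lists and of the 7 listed genes, filled where the adjusted p was 0.05 or less, with a black bar for the median of the list and a dashed line for the median of all genes, 0.09. The median of the SGK and TSC22 list, 0.52, is the one farthest to the right.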

How the data were processed

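Per the labels' protocols, Trizol served for RNA extraction and a NEBNext Ultra RNA kit for the libraries. The authors deposited 1 table of gene symbols and FPKM values per library. HISAT2 2.0.4, StringTie 1.3.4d and cutadapt 1.9, beside DESeq2 and edgeR, stand in the submitters' processing notes with no role for each, as does the build mm10. The annotation, the strandedness of the counting and the filter on listed genes are not given in the sources used here. The kit's name gives no strand either.

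Genes absent from a table were missing, not 0. A symbol given to 2 rows was left out. Whole reads were recovered from the FPKM steps for 99.9% of genes per library within 0.003 reads of a whole number, a step checked on simulated data. The recovered genes held 89.5% to 92.6% of the summed FPKM of a library, so the totals of reads leave out the rest. Depth is known only as these reads, and intervals cover the spread between libraries.

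Tests were two-sided, with limma 3.58.1 in R 4.3.3 (lmFit, eBayes with trend) on log2(FPKM + 1), over genes listed in every library of the fit with a mean FPKM of at least 1. The threshold was a Benjamini-Hochberg adjusted p of 0.05 over all genes tested. On this scale fold changes of low genes are understated. Cortex EE and SH were compared with the set of libraries as a covariate, tissues in replicates 1 to 3 with treatment as a term, and EE effects between tissues and between sets by interaction terms. The ratio of receptors was tested by exact permutation in Python 3.11.15, and pairs of genes by 100000 permutations within sets and tissue. The alternatives were 2 other scalings, other filters, a pseudocount of 0.1, limma without trend but robust, a replicate block, single sets, and the omission of each library in turn. Chosen later, with the values known, were limma-voom on recovered reads and a fit with the transcript-length trend of every library removed. That trend was taken from deviations from the mean of the library's own cortex set or of hippocampus. Length trends between sets or tissues were thus not removed.

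The 8 genes and the 9 lists were chosen with earlier results of these data known. Named genes are all 8, list genes past the threshold (at most 6 per list, smallest p first), the first 2 per list between EE and SH as far as described, and the 3 nearest genes by correlation. Mt1, Cdkn1a, Angptl4, Clock, Arntl and Tsc22d1 rank after the sixth of their lists and were named after their values were seen, to fill out the counts. Some genes that this rule selects are left out of the text. Gene positions came from GENCODE M21 and windows from RefSeq.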

Additional observations from a re-analysis of the deposited data

Results flagged for a closer look

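The EE effect on Nr3c2 and on Fkbp4 had opposite signs in the 2 sets of cortex libraries. For Nr3c2, all 3 EE libraries of replicates 1 to 3 were above the SH mean of that set and both EE libraries of replicates 4 and 5 were below theirs. EE replicates 1 and 2 (2.55 and 2.49 FPKM) lay above every SH library of their set. EE replicate 3 (1.81 FPKM) lay below SH replicates 1 and 2 (2.34 and 2.22 FPKM). Its place above the mean rests on cortex SH replicate 3 (0.630 FPKM). The EE effect was 0.81 log2 lower in replicates 4 and 5 (difference of effects -0.81 ± 0.44 SE, limma interaction, adjusted p = 0.293). For Fkbp4 the signs were the other way round (difference of effects 0.53 ± 0.26 SE, limma interaction, adjusted p = 0.274). Neither difference passed, and 0 of 12539 genes did (0%), with 2434 under an unadjusted p of 0.05 and 0 called by limma-voom. Cortex SH replicate 3, the lowest library for Nr3c2 and the highest for Fkbp4, belongs to replicates 1 to 3. Without it the differences of effects were -0.47 and 0.36. Trends on transcript length (Spearman's rho) of deviations from the mean of the set differed by treatment within each set. Such deviations cancel over a set, so its libraries are not independent, and cortex SH replicate 3 bears on the values of the others in its set. They were 0.64, 0.63 and 0.45 in EE replicates 1 to 3 against 0.23, 0.29 and -0.76 in SH. In replicates 4 and 5 they were -0.20 and -0.41 in EE against 0.47 and 0.26 in SH. By length, Nr3c2 stood at percentile 67.5 and Fkbp4 at 24.2. Under other settings, including removal of these trends, the differences ran from -1.33 to -0.60 and from 0.054 to 0.57. The part of the trend was not tested. Dixon's test for an outlying value flagged no library in any of the 14 groups (7 genes, each in cortex EE and cortex SH) large enough for it. The test pooled both cortex sets, and in groups this small it flags only very wide gaps. It therefore does not show that cortex SH replicate 3 was like the others.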

How the results depend on the processing

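Values are log2 differences unless they are counts of genes. The cortex count of 1 became 3 with quantile normalization, 5 with the length trend removed, 0 without the term for the set, 0 in replicates 1 to 3 alone and 435 in replicates 4 and 5 alone, which rest on 2 libraries a group. The tissue count of 4661 became 2744 with a mean FPKM of at least 5, where fewer genes were tested and neither receptor was among them. Leaving out each library gave counts of 1 to 3 in cortex, 3662 to 5760 between tissues and 0 to 3 for the difference between cortex sets, the 3 without cortex SH replicate 3 in cortex and between sets. None of the 7 genes passed between EE and SH in any alternative.

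Small differences changed sign. In cortex these were Per1 with median-of-ratios scaling (0.0021), quantile normalization (0.000975) and replicates 1 to 3 alone (0.14), Fkbp4 with quantile normalization (0.030), the length trend removed (0.029) and replicates 4 and 5 alone (0.27), and Nr3c1 (-0.13) and Nr3c2 (-0.48) in replicates 4 and 5 alone, with Nr3c2 at -0.019 once the length trend was removed. In hippocampus Nr3c1 was 0.021, 0.035, 0.011, 0.032 and 0.099 with median-of-ratios scaling, quantile normalization, the pseudocount of 0.1, limma-voom and the length trend removed. Between tissues Sgk1 was -0.062 and -0.045 under the 2 scalings. The difference of EE effects between tissues became 0.018 for Per1 with quantile normalization and, with the length trend removed, 0.032 for Nr3c1, 0.018 for Sgk1, 0.026 for Tsc22d3 and 0.25 for Per1. That between cortex sets became 0.014 for Fkbp5, 0.011 for Sgk1 and 0.028 for Per1 with the length trend removed.

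Leaving out each library in turn gave, in cortex, -0.22 to 0.18 for Nr3c2, -0.14 to 0.079 for Fkbp4, -0.15 to 0.12 for Per1 and 0.014 to 0.24 for Nr3c1, and in hippocampus -0.43 to -0.098 for Nr3c2, 0.052 to 0.72 for Sgk1, -0.25 to 0.14 for Nr3c1, -0.18 to 0.13 for Fkbp5 and -0.13 to 0.25 for Per1. It gave -0.14 to 0.16 for Sgk1 between tissues. For the difference of EE effects between tissues it gave -0.31 to 0.36 for Sgk1, -0.11 to 0.012 for Tsc22d3 and -0.27 to 0.16 for Per1, and between sets -0.27 to 0.14 for Fkbp5 and -0.36 to 0.14 for Sgk1. The ratio of receptors ranged from -0.36 to 0.0022 in cortex and from -0.55 to 0.078 in hippocampus. The causes were not tested.

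A replicate block left the counts at 1 in cortex, 0 in hippocampus, 4561 between tissues and 0 in both interactions. It ended 1 call of these genes, Fkbp5 between tissues (-0.42, limma, adjusted p = 0.0509). Same-numbered libraries did not deviate together throughout (r from 0.089 to 0.41 between cortex EE and SH, -0.56, -0.17 and 0.36 in hippocampus, and between the tissues -0.029, 0.23 and 0.23 in EE and 0.098, 0.27 and 0.039 in SH). Deviations were taken from the mean of each group within its set, so cortex replicates 4 and 5 mirror each other and share r = 0.14. Such correlations cannot decide whether the numbers pair the libraries, and the numbers were not taken to do so.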
